A study of Mus musculus with 9 samples.

Results

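The Rag GTPases and the Ragulator complex were followed at the transcript level in neutrophils sorted from the bone marrow of young mice. The genes examined were chosen by name: Rraga, Rragc and Rragd, which encode the Rag GTPases RagA, RagC and RagD, and Lamtor1 to Lamtor5, which encode the 5 Ragulator subunits. All 8 were among the 7197 genes of the deposited table. Libraries of 2 genotypes were compared, 5 from Rragc+/+ mice and 4 from RragcS74N/+ mice, all aged 2 months. RragcS74N/+ mice belonged to a strain generated by Cas9 editing of embryos. In every cell of the body they carried 1 Rragc allele that encodes asparagine in place of serine at residue 74 of RagC (S74N). This allele also held silent substitutions beside that codon. The other allele was unedited, and Rragc+/+ mice carried 2 unedited alleles. Cells were gated as CD45+, CD11b+ and Ly6G+, and polyadenylated RNA was read from its 3′ ends. The question was whether neutrophils with 1 edited Rragc allele, an edit made to mimic its active, GDP-bound state, differed from wild-type neutrophils in the transcripts of the complex to which RagC belongs.

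RagA or its paralogue RagB pairs with RagC or RagD, and the pair is held on the surface of the lysosome by Ragulator. When amino acids are plentiful, RagA binds GTP and RagC binds GDP, and the heterodimer brings the kinase complex mTORC1 to the lysosome, where Rheb activates it. RagC and RagD in the same state also hold the transcription factor TFEB and its relatives in the cytoplasm. Neutrophils are short-lived phagocytes that carry many granules, and mTORC1 is known to act in their responses to stimuli.

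The edited codon is shown first, since it defines the genotypes. It is the last codon of the P-loop, the nucleotide-binding motif shared by these GTPases. In transcripts of the GENCODE annotation (assembly GRCm38), the 24 bases that encode this motif read as follows, 5′ to 3′, with its last codon in capitals.
Rragc: gggctccggcgcagcggcaaaTCC
Rragd: ggtctcaggaggagcggcaagTCG
Rraga: ggaaagagcgggtcggggaagACC
The capitals in Rragc are codon 74, at chr4:123917753-123917755 on the plus strand, in exon 1 of 7. They encode serine, as the label of the edit requires, and the last codon of the motif is also one for serine in Rragd and one for threonine in Rraga. Codon 74 lies 2283 nucleotides upstream of the 3′ end of the Rragc transcript. Reads from the 3′ end therefore do not reach the edit, and the 2 alleles cannot be told apart in the counts. The level of Rragc is accordingly no check of the genotype labels.

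The 3 Rag genes lie on chromosome 4, Lamtor2, Lamtor3 and Lamtor5 on chromosome 3, Lamtor4 on chromosome 5 and Lamtor1 on chromosome 7. Promoters are shown because Rag genes, Rragd above all, are known targets of TFEB, which binds the E-box CACGTG within longer elements. RefSeq promoters (assembly GRCm38.p6, 250 bases before to 50 after the start) were matched for 7 of the 8 genes, and Lamtor3 had no entry. CACGTG, which reads the same on both strands, was present in 3 of these 7, Rragc, Lamtor1 and Lamtor4, against 8.09% of all 27025 genes with a promoter and 12.0% of the 5684 that the table listed. The stretches that hold it follow, all from the plus strand, with CACGTG in capitals.
Rragc: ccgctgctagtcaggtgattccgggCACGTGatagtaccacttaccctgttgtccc
Lamtor1: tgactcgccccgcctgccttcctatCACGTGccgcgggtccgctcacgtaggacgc
Lamtor4: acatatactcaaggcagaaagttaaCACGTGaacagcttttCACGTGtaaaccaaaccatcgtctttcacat
These are chr4:123917296-123917351, chr7:101905744-101905799 and chr5:138255337-138255408. The motif began 112 bases upstream of the start in Rragc, 68 bases upstream in Lamtor1, and 120 and 104 bases upstream in Lamtor4. The promoter of Rragd held no CACGTG in this window. A match of letters is a description of the sequence, and no binding was measured here.

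The libraries were checked before the genes were compared. Reads over the listed genes numbered between 1214295 and 1973957 per library, and these totals are not the full depth. Rragc+/+ replicate 2, the library with the fewest reads, stood apart, with an average rank correlation (Spearman) of 0.901 to the others against 0.935 to 0.954 for the rest. The genotype differences of named genes are therefore given with and without it, except for Mlst8. The cells expressed the genes of the sorting antigens, with Ly6g at 2639 ± 396 normalized counts in the 5 Rragc+/+ libraries and 2798 ± 891 in the 4 RragcS74N/+ libraries (mean ± SD, as throughout). Itgam differed by -0.09 and Ptprc by -0.16 on the log2 scale (limma, adjusted p = 0.864 and 0.781), and by -0.06 and -0.12 without Rragc+/+ replicate 2. All 12 neutrophil markers examined were listed, and they summed to between 134799 and 196374 normalized counts in Rragc+/+ and between 126579 and 217839 in RragcS74N/+. Of the markers of other cells, 7 of 8 erythroid, 1 of 6 B cell, 1 of 6 T and NK cell, 1 of 6 monocyte, 5 of 7 eosinophil and basophil and 0 of 4 platelet genes were listed. The B cell gene Cd79a, the T cell gene Cd3e and the primary granule genes Mpo and Elane were not among them. The listed erythroid genes summed to between 1091 and 5609 normalized counts in Rragc+/+ and between 379 and 2158 in RragcS74N/+. Their part in the values below was not tested.

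Transcripts of the complex spanned a wide range of levels. In 3′-end libraries a transcript yields reads near its end whatever its length, so levels were compared between genes without division by length, although priming can differ between genes. Over the 9 libraries Lamtor4 was highest at 750.3 ± 149.8 normalized counts and Lamtor1 next at 597 ± 85.7 (SD, n = 9), above 96.2% and 94.8% of the listed genes. Lamtor5 followed at 146 ± 33.9, Rraga at 113 ± 28.7, Lamtor3 at 87.8 ± 21.9, Rragc at 68.7 ± 9.74 and Lamtor2 at 33.2 ± 4.95 (SD, n = 9). Rragd was the lowest at 10.3 ± 2.86 (SD, n = 9), above 8.07% of the listed genes. Some steps in this order were present in each of the 9 libraries: Lamtor1 exceeded Lamtor5 by between 2.38-fold and 5.03-fold, Rragc exceeded Lamtor2 by between 1.59-fold and 3.41-fold, and Lamtor2 exceeded Rragd by between 1.94-fold and 6.17-fold. Lamtor4 exceeded Lamtor1 in 8 libraries, with ratios from 0.911 to 1.91. Lamtor5 and Rraga kept their order in 6 libraries, Rraga and Lamtor3 in 7, and Lamtor3 and Rragc in 8, and within each of these pairs the means differed by less than the larger of their SDs. RagC was thus the main transcript of its pair of paralogues, with Rragc between 4.53 and 11.7 times as abundant as Rragd in single libraries.

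**Figure D1:**
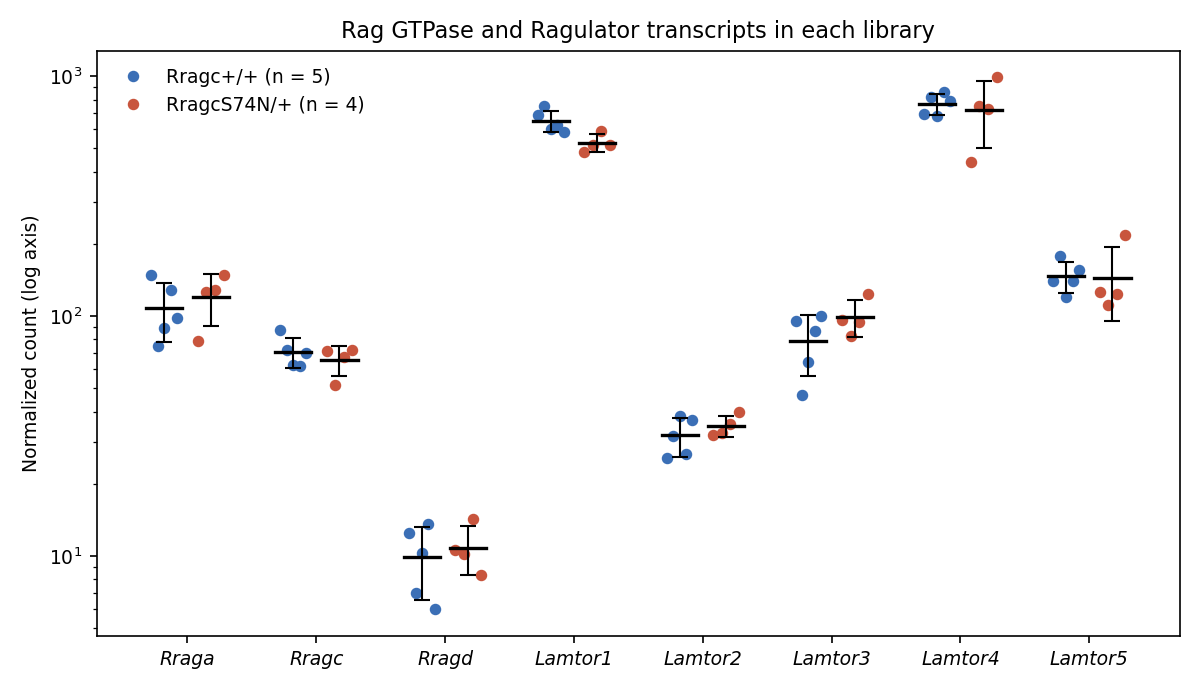
Normalized counts (log axis) of the 8 genes in each library, with 5 Rragc+/+ libraries in blue and 4 RragcS74N/+ libraries in red. Black bars are the mean ± SD of each genotype. The genotypes overlap for each gene, and the genes range from Rragd near 10.3 to Lamtor4 near 750.3 normalized counts.

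In the genotype comparison, none of the 8 genes passed the threshold, an adjusted p-value of 0.05 over the 6673 genes tested (limma, 0 of 8). Across all genes tested the share past it was 0%, and 5.81% had an unadjusted p-value under 0.05, which 0 of the 8 genes had. By edgeR on the recovered reads 0% of genes passed the adjusted threshold and 6.89% the unadjusted one, with 0 of the 8 genes past either, and by DESeq2 0% and 6.7%, with Lamtor1 as the one member past the unadjusted threshold (DESeq2, adjusted p = 0.737). The genotypes overlapped for all 8 genes. Among all genes tested 1.69% showed no overlap, so 0 of 8 does not set these genes apart. The 8 genes split evenly, 4 higher and 4 lower in mean in RragcS74N/+, beside 46.6% lower among all genes tested. Their median log2 difference was 0.04, and that of all genes tested was 0.02. Since these are bulk samples, fewer cells of a type and less RNA per cell cannot be told apart in any of the differences below.

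Rragc itself, the edited gene, measured 87.6, 72.4, 62.8, 61.9 and 70.2 normalized counts in Rragc+/+ replicates 1 to 5. The RragcS74N/+ libraries held 71.6, 51.8, 67.8 and 72.1. The highest value was in Rragc+/+ replicate 1 and the lowest in RragcS74N/+ replicate 2, with the other 7 libraries close together between them. The log2 difference was -0.11 with a standard error of 0.18 (limma, adjusted p = 0.860), and it was 0.0011 without RragcS74N/+ replicate 2. Over all libraries the fold of value + 1 was 0.928, with a 95% interval from 0.708 to 1.22. Rragc was among the steadier genes, with a within-genotype SD of 0.21 on the log2 scale that was smaller than in all but 11.6% of the genes tested, where the median was 0.36.

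Rraga, the partner of RagC in the heterodimer, varied more. It measured 148, 74.8, 89.0, 129 and 98.3 normalized counts in Rragc+/+ and 78.9, 126, 129 and 148 in RragcS74N/+. Both genotypes held low and high libraries, and Rragc+/+ replicate 2 was the lowest of the 9. The log2 difference was 0.17 with a standard error of 0.24 (limma, adjusted p = 0.834), and it ranged from 0.05 without Rragc+/+ replicate 2 to 0.36 without RragcS74N/+ replicate 1. The ratio of Rraga to Rragc had a mean of 1.52 ± 0.388 over the 5 Rragc+/+ libraries and of 1.87 ± 0.560 over the 4 RragcS74N/+ libraries. It ran from 1.03 in Rragc+/+ replicate 2 to 2.43 in RragcS74N/+ replicate 2. The genotypes overlapped, with 1.10 in RragcS74N/+ replicate 1 and 2.08 in Rragc+/+ replicate 4.

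Rragd, the paralogue of Rragc, rested on 6 to 19 reads per library. It measured 12.5, 7.01, 10.3, 13.7 and 6.02 normalized counts in Rragc+/+ and 10.6, 10.2, 14.3 and 8.36 in RragcS74N/+, and the lowest 2 libraries were both Rragc+/+. The log2 difference of 0.16 had a 95% interval from -0.53 to 0.84 (limma, adjusted p = 0.883). At this depth the interval thus held folds of value + 1 from 0.692 to 1.80. This scale understates changes at so low a level. The difference was 0.01 without Rragc+/+ replicate 5 and 0.26 without RragcS74N/+ replicate 4. Rragd made up 5.22% ± 1.33 of the summed Rag transcripts in Rragc+/+ (SD, n = 5) and 5.61% ± 1.44 in RragcS74N/+ (SD, n = 4). Rragb, which encodes the paralogue of RagA, was not analysed here.

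Lamtor1 encodes the lipid-anchored subunit that tethers Ragulator to the lysosomal membrane and wraps around the other subunits. It had the smallest p-value of the 8 genes in the fit over all 9 libraries. Rragc+/+ libraries held 687, 753, 604, 628 and 587 normalized counts, and RragcS74N/+ libraries 483, 517, 592 and 519. Of the 4 RragcS74N/+ libraries, 3 lay below every Rragc+/+ library, and replicate 3, at 592, lay just above Rragc+/+ replicate 5, at 587. The means were 651 ± 68.1 over the 5 Rragc+/+ libraries and 528 ± 45.9 over the 4 RragcS74N/+ libraries, a log2 difference of -0.30 with a standard error of 0.15 and a 95% interval from -0.62 to 0.02 (limma, adjusted p = 0.713). The within-genotype SD of Lamtor1, 0.14 on the log2 scale, was larger than that of 2.04% of the genes tested alone. The difference was -0.25 without Rragc+/+ replicate 2 and -0.34 without Rragc+/+ replicate 5, where Lamtor1 passed the unadjusted threshold but not the adjusted one (limma, adjusted p = 0.364).

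Lamtor2 and Lamtor3 encode the roadblock-fold subunits p14 and MP1, which form one of the heterodimers within Ragulator. Lamtor3 measured 95.5, 46.7, 64.7, 86.8 and 100.3 normalized counts in Rragc+/+ and 96.8, 82.3, 94.1 and 123 in RragcS74N/+. The lowest 2 values were both in Rragc+/+ and the highest in RragcS74N/+ replicate 4, but 3 of the 5 Rragc+/+ libraries lay within the RragcS74N/+ range. Its log2 difference was 0.37, with a standard error of 0.23 and a 95% interval from -0.14 to 0.87 (limma, adjusted p = 0.713), and it was 0.19 without Rragc+/+ replicate 2. Lamtor2 measured 25.7, 31.5, 38.4, 26.5 and 37.1 normalized counts in Rragc+/+ and 31.8, 32.5, 35.4 and 39.7 in RragcS74N/+, with 2 Rragc+/+ libraries below every RragcS74N/+ library and the highest value in RragcS74N/+ replicate 4. Its log2 difference was 0.14 with a standard error of 0.20 (limma, adjusted p = 0.835), and it ranged from 0.07 without Rragc+/+ replicate 1 to 0.21 without Rragc+/+ replicate 3. Although the proteins pair with each other, Lamtor3 was between 1.48 and 3.72 times as abundant as Lamtor2 in single libraries.

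Lamtor4 and Lamtor5 encode the subunits p10 and HBXIP, the second heterodimer of Ragulator. Lamtor4 measured 693, 816, 686, 859 and 792 normalized counts in Rragc+/+ and 439.6, 749, 728 and 989.7 in RragcS74N/+. The RragcS74N/+ libraries held both the lowest and the highest value, and the SD was 76.6 (n = 5) in Rragc+/+ and 225 (n = 4) in RragcS74N/+. The log2 difference of -0.13 (limma, standard error 0.21, adjusted p = 0.849) became 0.09 without RragcS74N/+ replicate 1 and -0.30 without RragcS74N/+ replicate 4. Lamtor5 measured 139.6, 178, 120.0, 141 and 155 normalized counts in Rragc+/+ and 126, 111, 124 and 218 in RragcS74N/+. Its RragcS74N/+ replicate 4 was the highest of the 9 libraries, while the other 3 RragcS74N/+ libraries lay at or below 126. The log2 difference of Lamtor5 was -0.06 (limma, standard error 0.21, adjusted p = 0.936), and -0.27 without that library.

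**Figure D2:**
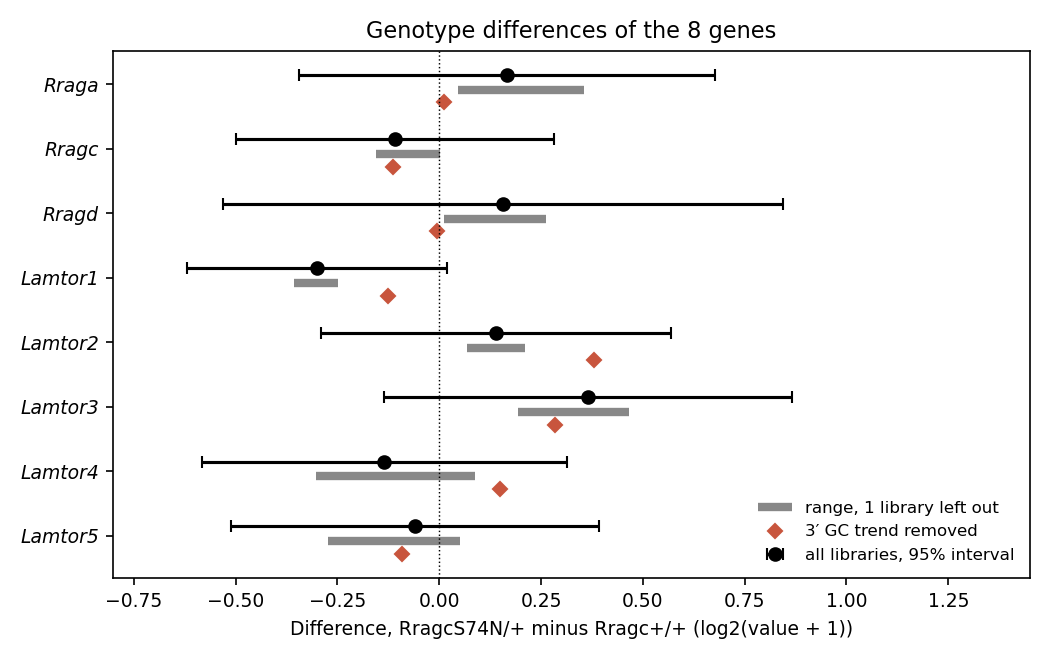
Difference between genotypes for each gene, RragcS74N/+ minus Rragc+/+, on the log2(value + 1) scale. Black points and bars are the limma estimate and its 95% interval over 9 libraries, grey bars the range of the estimate when 1 library at a time was left out, and red diamonds the estimate with the trend of each library on 3′ GC content removed. The intervals of all 8 genes cross 0, and the diamond lies on the other side of 0 from the point for Rragd and Lamtor4.

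Single libraries moved several of the genes. RragcS74N/+ replicate 4 held the highest value of 5 of the 8 genes, Rraga, Lamtor2, Lamtor3, Lamtor4 and Lamtor5. RragcS74N/+ replicate 1 held the lowest values of Lamtor1 and Lamtor4, and Rragc+/+ replicate 2 the lowest of Rraga and Lamtor3 and the highest of Lamtor1. How often these libraries held the extremes among all genes tested was not counted. Without Rragc+/+ replicate 2 the log2 differences of the genes not given above were -0.10 for Rragc, 0.06 for Rragd, 0.14 for Lamtor2, -0.11 for Lamtor4 and 0.01 for Lamtor5, so Lamtor5 changed sign. The genes also differed in base composition at the 3′ end, the part of the transcript that was read. The last 500 nucleotides held 56.2% G and C in Lamtor4, 54.6% in Lamtor2 and 52.2% in Lamtor1, against 45.0% in Rragc, 43.8% in Lamtor5, 41.4% in Lamtor3, 35.6% in Rraga and 34.6% in Rragd. With the trend of each library on this content removed, the log2 difference was -0.13 for Lamtor1, 0.15 for Lamtor4 and 0.38 for Lamtor2 (limma, adjusted p = 0.889, 0.909 and 0.8815). It was 0.28 for Lamtor3, -0.09 for Lamtor5, 0.01 for Rraga, -0.11 for Rragc and -0.0059 for Rragd. Rragc and Lamtor5 were thus little moved by this correction, whereas Lamtor1 went from -0.30 to -0.13 and Lamtor4 changed sign.

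The spread between libraries was set against the error that counting alone gives. For Lamtor4 in RragcS74N/+ the coefficient of variation was 31.0% against a counting error of 3.52%, and for Lamtor5 it was 34.2% against 7.95%. Rraga and Lamtor3 also varied beyond counting, at 27.8% against 9.70% and 28.6% against 11.5% in Rragc+/+. For Rragc the figures were close together, 14.6% against 11.5% in Rragc+/+ and 14.5% against 11.7% in RragcS74N/+. Rragd and Lamtor2 in RragcS74N/+ varied no more than counting would give, at 23.0% against 29.2% and 10.3% against 15.8%. Counting error assumes that reads are independent molecules, and whether reads were collapsed by molecular identifier was not stated.

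**Figure D3:**
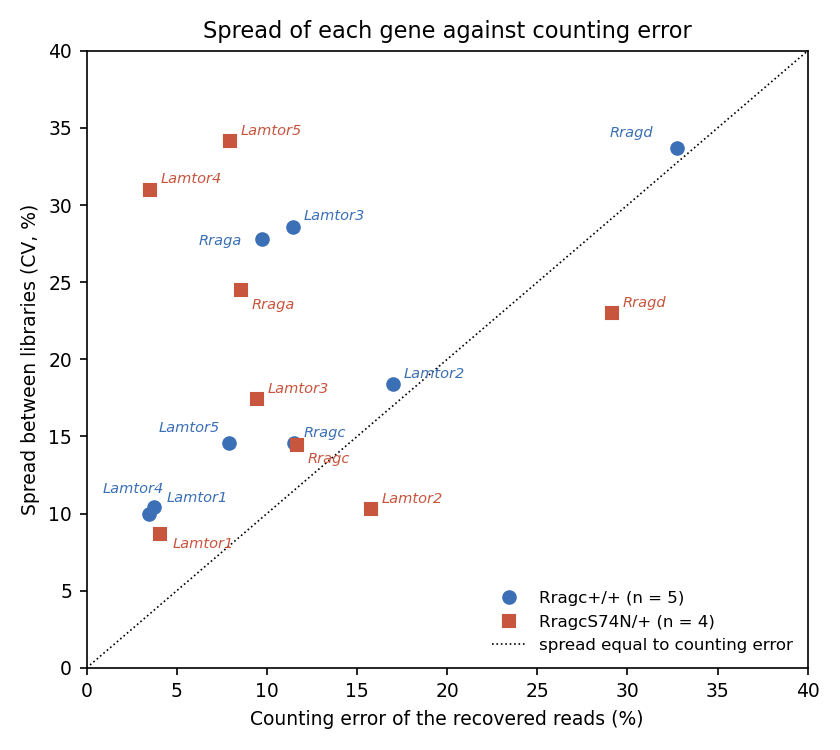
Coefficient of variation between libraries of a genotype (vertical axis, %) against the counting error of the recovered reads (horizontal axis, %) for the 8 genes, with Rragc+/+ (n = 5) as blue circles and RragcS74N/+ (n = 4) as red squares. The dotted line marks equal values. Lamtor4 and Lamtor5 in RragcS74N/+ lie farthest above the line, and Rragc and Rragd lie near it in Rragc+/+.

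Ragulator is assembled from 1 copy of each subunit, but its transcripts were far from equal. Lamtor4 made up 45.8% ± 2.70 of the summed Ragulator transcripts in Rragc+/+ (SD, n = 5) and 46.5% ± 6.63 in RragcS74N/+ (SD, n = 4). Lamtor1 made up 38.8% ± 3.08 and 35.2% ± 5.76, Lamtor5 8.71% ± 0.782 and 9.40% ± 2.04, Lamtor3 4.73% ± 1.39 and 6.56% ± 1.18, and Lamtor2 1.92% ± 0.446 and 2.31% ± 0.271 in the same groups. The order of the shares was the same in both genotypes. The sum of the 5 genes was 1678 ± 116 normalized counts in Rragc+/+ (SD, n = 5) and 1533 ± 293 in RragcS74N/+ (SD, n = 4), and both its extremes, 1177 and 1891, were in RragcS74N/+ replicates 1 and 4. The sum of the 3 Rag genes was 189 ± 38.4 and 197 ± 29.3. No p-value is given for shares or sums, because the genes were chosen with results of these data known.

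**Figure D4:**
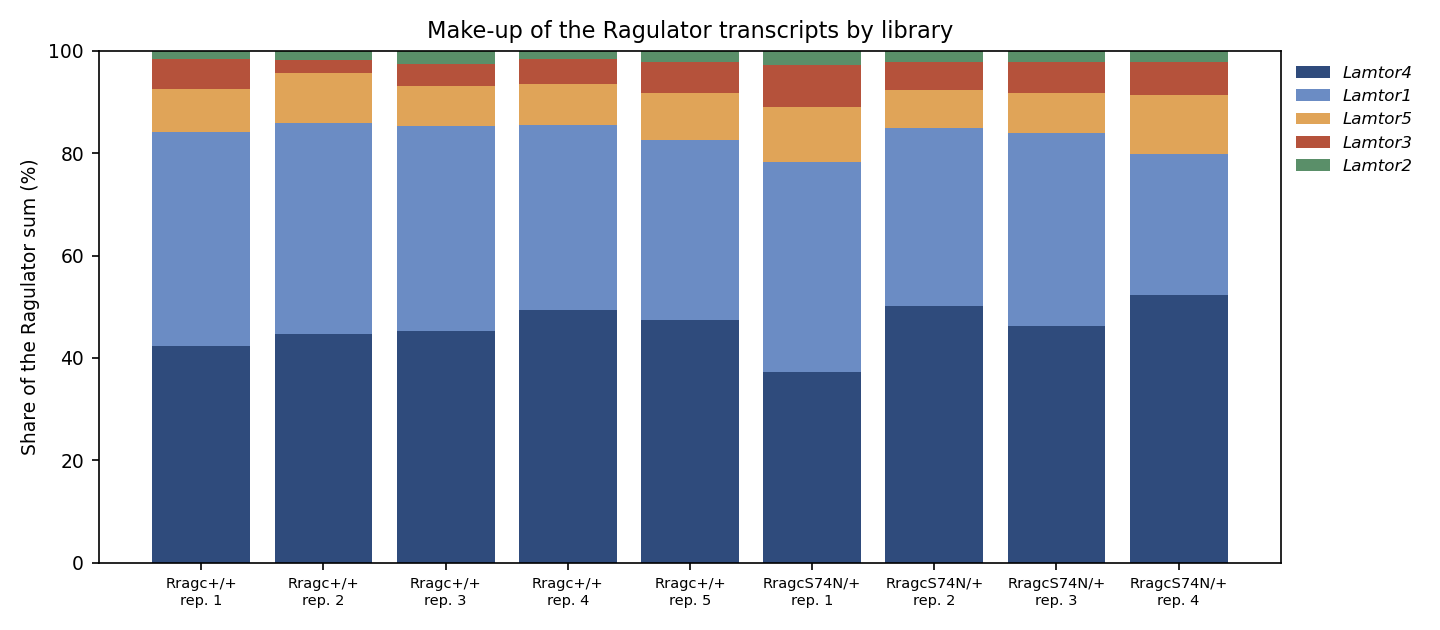
Share of each subunit in the summed Ragulator transcripts (vertical axis, %) in each of the 9 libraries. Lamtor4 and Lamtor1 together take most of each bar, and RragcS74N/+ replicate 4 has the lowest share of Lamtor1, 27.5%.

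The other genes of the platform were examined as a list of 45 regulators, partners and effectors, of which 24 were listed and 22 tested. Genes were matched by exact symbol, so a gene listed under an older symbol is not in these counts. None passed the adjusted threshold in either direction (limma, 0 of 22, beside 0% of all genes tested). An unadjusted p-value under 0.05 was found for 3 of 22, beside 5.81% of all genes. Of the 22, 10 were higher and 12 lower in mean in RragcS74N/+, with a median log2 difference of -0.07.

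Among the sensors, 3 of 7 genes were tested. Sesn2 encodes Sestrin2, a leucine-binding protein that restrains the activator complex GATOR2, and had the smallest p-value of the list. Its level was 140.2 ± 50.8 normalized counts over the 5 Rragc+/+ libraries and 82.9 ± 14.1 over the 4 RragcS74N/+ libraries, a log2 difference of -0.69 with a standard error of 0.25 (limma, adjusted p = 0.713), and the genotypes overlapped. Bmt2 encodes SAMTOR, a sensor of S-adenosylmethionine, and its levels in the same order were 71.9 ± 13.4 and 97.3 ± 14.4, a log2 difference of 0.44 (limma, standard error 0.19, adjusted p = 0.713). Without Rragc+/+ replicate 2 the log2 difference was -0.53 for Sesn2 and 0.39 for Bmt2, and Bmt2 then missed the unadjusted threshold. With the 3′ GC trend removed it was -0.41 for Sesn2 and 0.23 for Bmt2, and neither passed that threshold. Sesn2 passed it whichever single library was left out. Bmt2 also missed it without Rragc+/+ replicate 4 and without RragcS74N/+ replicate 1, 2 or 4. Slc38a9, the lysosomal arginine transporter that contacts Ragulator, differed by 0.09 (limma, adjusted p = 0.935), and by -0.04 without Rragc+/+ replicate 2.

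Of 8 tested genes of BORC and Arl8, which position lysosomes and of which BORC binds Ragulator, 3 were higher and 5 lower in mean. Borcs8 was the one gene of the list whose genotypes did not overlap, beside 1.69% of all genes tested. Its level was 48.1 ± 20.9 normalized counts over the Rragc+/+ libraries, from 36.1 to 85.3, and 30.7 ± 4.09 over the RragcS74N/+ libraries, from 24.5 to 33.1, a log2 difference of -0.56 (limma, standard error 0.26, adjusted p = 0.713). Without Rragc+/+ replicate 2, where it reached 85.3, the difference was -0.34, and with the 3′ GC trend removed it was -0.28. Borcs8 passed the unadjusted threshold in neither case. With a single library left out, it passed only without Rragc+/+ replicate 1 or 5. Flcn, Fnip1 and Fnip2 encode folliculin and its partners, which drive RagC to its GDP-bound state, and differed by -0.03, 0.09 and -0.17 (limma, adjusted p of at least 0.860 for each). Without Rragc+/+ replicate 2 these differences were -0.21, 0.01 and -0.26.

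Of mTORC1 and its activator, 3 of 6 genes were tested, Mtor, Rheb and Mlst8. Mtor measured 53.4 ± 6.89 normalized counts (SD, n = 5) and 53.6 ± 2.95 (SD, n = 4) and Rheb 80.7 ± 12.3 and 80.7 ± 9.37 in the same order. Their log2 differences of 0.01 each had 95% intervals from -0.36 to 0.38 and from -0.37 to 0.38 (limma, adjusted p = 0.989 and 0.995), and were 0.04 and -0.02 without Rragc+/+ replicate 2. Mlst8 measured 111 ± 23.2 over the Rragc+/+ libraries and 94.1 ± 29.7 over the RragcS74N/+ libraries, and the genotypes overlapped. Its log2 difference was -0.27 (limma, standard error 0.24, adjusted p = 0.744). Of the factors that active RagC holds in the cytoplasm, Tfeb measured 93.9 ± 35.2 normalized counts over the Rragc+/+ libraries and 60.8 ± 14.0 over the RragcS74N/+ libraries, and the genotypes overlapped. Tfeb differed by -0.57, Tfe3 by -0.50 and Mitf by 0.06 (limma, adjusted p = 0.713, 0.713 and 0.949). Without Rragc+/+ replicate 2, which held the highest value of Tfeb and of Tfe3, these differences were -0.39, -0.28 and 0.04, and with the 3′ GC trend removed they were -0.16, -0.37 and -0.09. The unadjusted p-value of Tfeb lay near the threshold, and its side depended on the setting. It was 0.051 in the main limma fit, 0.037 by edgeR and 0.035 by DESeq2. By limma it was 0.0097 without Rragc+/+ replicate 5, 0.117 without Rragc+/+ replicate 2 and 0.409 with the 3′ GC trend removed. Of GATOR2, Sec13 was the one tested gene, at 0.76 with a 95% interval from -0.42 to 1.93 (limma, adjusted p = 0.724). Without Rragc+/+ replicate 2, where it measured 3.51 normalized counts, the difference was 0.17. Its product also serves in the COPII coat and the nuclear pore.

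**Figure D5:**
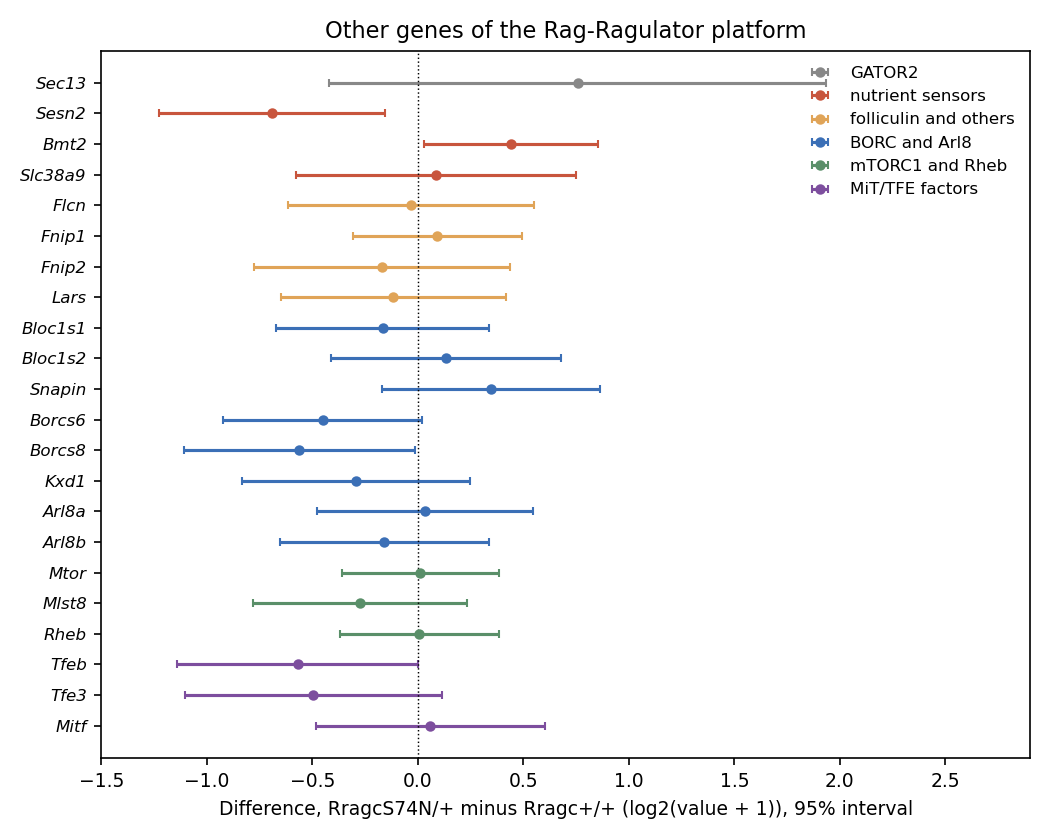
Difference between genotypes, RragcS74N/+ minus Rragc+/+, on the log2(value + 1) scale for the 22 tested genes of the list, with 95% intervals from limma and colours for the groups of genes. The intervals of Sesn2, Bmt2 and Borcs8 exclude 0 before adjustment, and no gene passed after it.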

How the data were processed

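The authors mapped the 3′-end reads with TopHat2 (GRCm39) and assigned them, by strand, to GENCODE genes with HTSeq 0.6.1. They then scaled the gene counts of each library by a size factor, and this scaled signal was deposited. Divided by the value of 1 read, 100% of the values came out whole (tolerance 0.001), which gave the reads back. The 9 columns were mapped by GEO's labels, with 0 left without a sample. Replicates were numbered in accession order. No pair of libraries of one genotype was a duplicate (16 pairs, lowest chi-square 5.47 times its degrees of freedom). The labels give no batch.

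The test took genes whose mean reached 10 and was made on log2(value + 1), a scale that understates changes of low genes, with limma 3.58.1 (R 4.3.3), trended moderation, genotype as the one term and Benjamini-Hochberg adjustment over all 6673 genes. edgeR 4.0.16 and DESeq2 1.42.0 on recovered reads were alternatives, with no adjusted p from DESeq2 for 8 genes. P-values measure the spread between libraries, taken as separate mice. 3′ GC content came from GENCODE transcripts of GRCm38 for 7067 genes. The genes and lists were chosen with earlier results of these data known. Named genes were the 8 members, the genes of the sorting antigens and the 3 pathway genes with the smallest p-value. Those needed to describe a complex were added, with the 3 genes with a mean of at least 50 most like Rragc and Rragd. Outside this rule, Slc38a9, Tfeb, Tfe3, Mitf, Bloc1s2 and some cell type markers were also named. BORC was not described in full. The immature and cycling marker list had 3 of 7 genes listed and summed to between 166 and 389 normalized counts in Rragc+/+ and between 210.4 and 307 in RragcS74N/+. Summed levels of the other lists were 87.6 to 140 and 83.5 to 123 for B cells, 14.5 to 28.9 and 14.6 to 18.8 for T and NK cells, 85.2 to 339 and 71.1 to 133 for monocytes, and 113 to 426 and 122 to 583 for eosinophils and basophils. The limma, edgeR and DESeq2 fits were tested on simulated data. There limma called fewer of the genes given the smaller change than of those given the larger one, and missed some. Both changes were larger than the difference of any of the 8 genes, so the calling of differences like theirs was not tested. The absence of calls with these libraries is therefore no proof of unchanged levels.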

Additional observations from a re-analysis of the deposited data

Results flagged for a closer look

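Dixon's test at the 95% level was applied to each genotype's values of the 8 genes and of the 22 tested genes of the list, 60 groups in all. A single library stood off in 5 groups, where chance gives about 3. Lamtor5 was high in RragcS74N/+ replicate 4, at 218 normalized counts against 111 to 126 in the others, a gap of 0.859 of the range. Flcn was high in the same library, at 31.4 against 20.3 to 21.4, a gap of 0.908. Bloc1s2, a subunit shared by BORC and BLOC-1, was high there too, at 33.4 against 23.9 to 24.9, a gap of 0.897. Borcs8 was high in Rragc+/+ replicate 2, at 85.3 against 36.1 to 42.2, a gap of 0.876, and low in RragcS74N/+ replicate 1, at 24.5 against 32.4 to 33.1, a gap of 0.914.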

How the results depend on the processing

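No paired analysis was possible because GEO's labels number no replicates. Under all 20 alternatives, 0 genes, 0 of the 8 members and 0 of the other pathway genes passed the adjusted threshold. Of 156 member differences recomputed, 150 kept their direction and 6 reversed. With the 3′ GC trend removed, Lamtor4 reversed to 0.15 and Rragd to -0.0059. With each library left out in turn, Rragc ranged from -0.15 to 0.0011, reversing without RragcS74N/+ replicate 2. Lamtor4 ranged from -0.30 to 0.087, reversing without RragcS74N/+ replicate 1, and Lamtor5 from -0.27 to 0.051, reversing without Rragc+/+ replicate 2 (0.0125) or RragcS74N/+ replicate 2. Among the pathway genes named above, those near 0 also reversed. Fnip1 was -0.109 and Mitf -0.085 with the GC trend removed, Fnip1 -0.040 and Slc38a9 -0.15 with array quality weights, and Rheb -0.0028 with equal totals, -0.0017 with TMM factors and -0.0065 in edgeR. With one library left out they ranged from -0.058 to 0.31 for Slc38a9, -0.21 to 0.13 for Flcn, -0.055 to 0.19 for Fnip1, -0.36 to 0.088 for Fnip2, -0.058 to 0.063 for Mtor, -0.059 to 0.080 for Rheb and -0.038 to 0.195 for Mitf. The cause was not tested. Rragd gave no value where its mean fell under 10, nor Rragd and Lamtor2 with a minimum of 50. Genes with an unadjusted p-value under 0.05 numbered 388, but 191 with a minimum mean of 50, where fewer genes were tested, 255 with the GC trend removed, 769 with array quality weights and 201 to 907 with one library left out. Leaving out a single library cannot move a mean by as much as its SD, so it was no check of the levels. With columns rescaled to the same total, no level moved by more than its SD.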

Other observations

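The genes whose profile over the 9 libraries was most like that of Rragc were Gnb1, Vps36 and Mpp1, with root-mean-square differences of 0.099, 0.104 and 0.105 on the centred log2 scale, where the median over 3474 genes was 0.353. Among the members, Lamtor1 was the nearest to Rragc, at 0.212 and rank 175, and Rraga, its partner, lay at 0.398 and rank 2221. The genes most like Rragd were Ccnk, Hp1bp3 and Acox3, at 0.174, 0.186 and 0.201. These ranks over 9 libraries are a description.

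The ratio of Lamtor3 to Lamtor1 was chosen after the values were seen. Its mean over the 5 Rragc+/+ libraries was 0.124 ± 0.0411, and over the 4 RragcS74N/+ libraries 0.189 ± 0.0377 (SD), with Rragc+/+ replicate 5, at 0.171, above RragcS74N/+ replicates 2 and 3, both at 0.159. The lowest ratio, 0.0621, was in Rragc+/+ replicate 2, the library that stood apart, and it lowered the Rragc+/+ mean.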
